A study of Homo sapiens with 4 samples.

Results

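Intronic circles, listed under identifiers that start with ciRNA, were examined in 2 established human pancreatic ductal adenocarcinoma cell lines, MiaPaCa-2 and PANC-1. A member was any ciRNA identifier with at least 1 count over the 4 libraries, and 3708 of the 29586 identifiers with a count were members. The groups were untreated MiaPaCa-2, MiaPaCa-2 given 20 µM thymoquinone (TQ, a quinone of black seed) for 24 h, untreated PANC-1, and PANC-1 given 10 µM TQ for 24 h. They are called untreated and treated below and control and TQ in the plots. Each group was 1 library, so dose and line cannot be told apart, differences within a line have no replicate check, and no source used here says whether the libraries came from separate cultures. All 4 were made from total RNA after ribosomal RNA depletion and ribonuclease R digestion, and neither a vehicle nor any genetic change is given in the labels.

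An intronic circle forms when an intron, spliced out as a lariat, escapes the debranching enzyme and loses its tail, which leaves a ring closed at the branch point. Known examples carry a GU-rich stretch near the upstream splice site and a C-rich stretch near the branch point, stay mostly in the nucleus, and some associate with RNA polymerase II at the gene they come from. A lariat loop resists ribonuclease R because that enzyme digests from free ends, so the preparation keeps both exonic and intronic circles. The table gives neither a host gene nor coordinates for a ciRNA, and the identifiers are therefore printed as they stand. The prefix is the sole evidence that these circles are intronic.

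The other identifiers fall into 2 classes. Those with a circBase number (13951 with a count) are catalogued circRNAs, and those named circRNA plus a number (11927 with a count) carry no catalogue number. Junction counts, meaning reads across the closing point of a circle, totalled 45094 in untreated MiaPaCa-2, 15819 in treated MiaPaCa-2, 48631 in untreated PANC-1 and 67964 in treated PANC-1. The treated MiaPaCa-2 library was thus the shallowest of the 4.

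ciRNAs were a small part of each library and a larger one in MiaPaCa-2. They held 3370 counts in untreated MiaPaCa-2, which was 7.47% of the library (95% Clopper-Pearson interval 7.23 to 7.72). In treated MiaPaCa-2 they held 1461 counts, or 9.24% (8.79 to 9.70). Untreated PANC-1 had 2368 ciRNA counts, or 4.87% (4.68 to 5.06), and treated PANC-1 had 2513, or 3.70% (3.56 to 3.84). Both MiaPaCa-2 libraries lay above both PANC-1 libraries, with means of 8.36% and 4.28%. An exact permutation test over libraries, two-sided, gave p = 0.333 for this difference of 4.07 percentage points (n = 2 per line), the smallest p that 2 against 2 can give. The treatments overlapped, with means of 6.47% treated and 6.17% untreated (exact permutation p = 1, n = 2 per treatment). The intervals within a line did not overlap, but they hold counting error only.

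**Figure D1:**
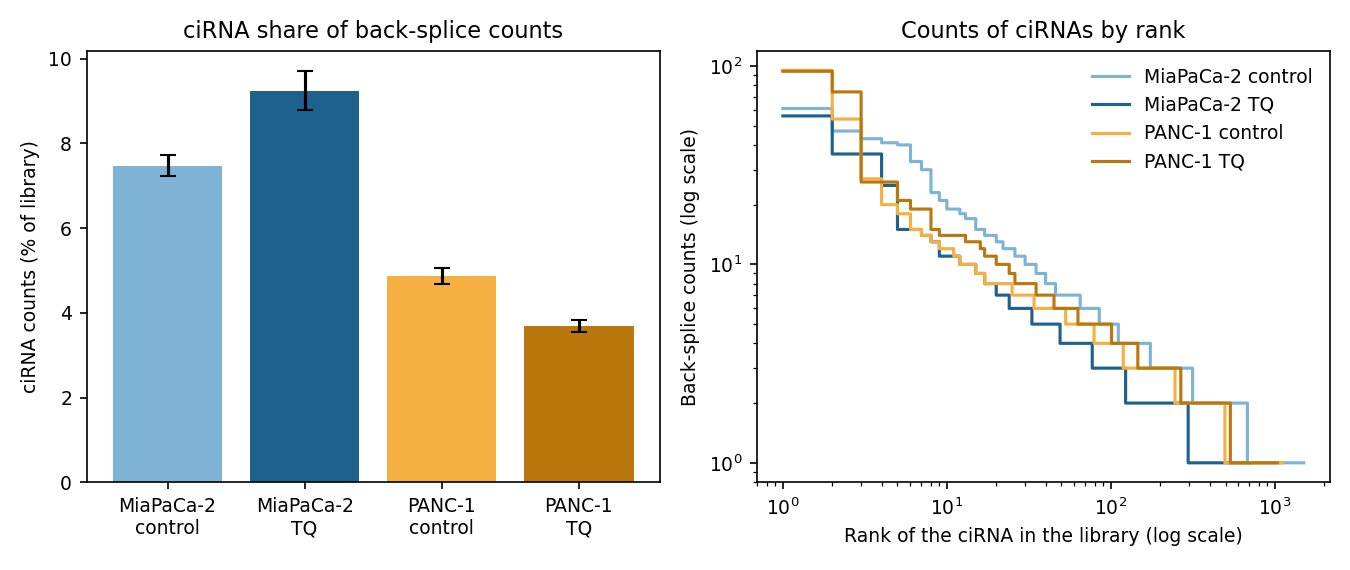
Left, share of junction counts held by ciRNAs in each library, with 95% Clopper-Pearson intervals as bars. Right, junction counts of each detected ciRNA against its rank in its library, both axes logarithmic. The 2 MiaPaCa-2 libraries, at 7.47% and 9.24%, stand above the PANC-1 libraries at 4.87% and 3.70%, and every rank curve falls from under 100 counts to a long tail at 1.

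The higher ciRNA share of MiaPaCa-2 was present at every abundance. Among identifiers with 50 or more counts over the 4 libraries, ciRNAs held 2.22% of untreated MiaPaCa-2 and 3.56% of treated MiaPaCa-2 counts, against 1.30% of untreated PANC-1 and 1.02% of treated PANC-1 counts. Among identifiers with exactly 1 count the shares were 25.4%, 27.8%, 16.8% and 10.4% in the same order. ciRNAs were therefore concentrated among rare identifiers: they made up 17.8% of the 11144 identifiers with 1 count and 1.85% of the 487 with 50 or more.

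The order of treated and untreated cells within a line also held across most of this range. In MiaPaCa-2 the treated share exceeded the untreated one in 5 of the 6 abundance bins, and in the bin of 2 to 3 counts the shares were 17.8% in both. In PANC-1 the treated share was the lower in all 6 bins. The PANC-1 gap was 6.36 percentage points among identifiers with 1 count and 0.286 among those with 50 or more.

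The members were mostly rare. Of the 13136 listed ciRNAs, 9428 had 0 counts in every library, and just inside the threshold 1986 members had 1 count and 900 had 2. Only 118 members (3.18%) had 10 or more counts over the 4 libraries, yet these held 29.9% of all ciRNA counts. In single libraries 1499 ciRNAs were detected in untreated MiaPaCa-2, 683 in treated MiaPaCa-2, 1112 in untreated PANC-1 and 1036 in treated PANC-1. The mean count of a detected ciRNA was 2.25, 2.14, 2.13 and 2.43 in that order, against 5.09, 3.60, 4.99 and 5.69 for circBase circles.

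Few ciRNAs reached high counts, and how their weight compared with that of top catalogued circles depended on the measure. The 10 most abundant ciRNAs held 10.6% (95% interval 9.60 to 11.7) of ciRNA counts in untreated MiaPaCa-2 and 15.9% (14.0 to 17.9) in treated MiaPaCa-2. In PANC-1 they held 11.8% (10.6 to 13.2) in control and 12.8% (11.5 to 14.2) in TQ. The 10 top circBase circles held 6.64%, 7.37%, 6.53% and 6.30% of their class in the same order of libraries. The uncatalogued circRNAs were less even in PANC-1, where their top 10 held 11.3% of control and 10.6% of TQ counts, close to the ciRNA values. A fixed 10 circles is a larger part of a small class, and the top 1% of detected identifiers gave the opposite order against circBase circles. It held from 12.3% to 13.5% of ciRNA counts and from 14.5% to 19.5% of circBase counts over the 4 libraries, and the ciRNA value was the lower in each. For uncatalogued circRNAs it held 13.3% and 10.7% in untreated and treated MiaPaCa-2, beside 13.2% and 13.5% for ciRNAs. In untreated and treated PANC-1 it held 17.8% and 19.2%, beside 12.3% and 12.8%.

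At equal counts, ciRNAs had the fewest expected distinct circles of the 3 classes. Drawn down to 1461 counts of the class, the expected number of distinct ciRNAs was 883 in untreated MiaPaCa-2, 683 in treated MiaPaCa-2, 831 in untreated PANC-1 and 768 in treated PANC-1. The same depth gave 1024, 933, 1060 and 1065 circBase circles and 1032, 862, 1044 and 1063 uncatalogued circRNAs. Counts of 1 made up 54.7% of detected ciRNAs in untreated MiaPaCa-2 against 33.8% of circBase circles, but at 1461 counts the order turned, to 70.8% and 78.8%. The deposited shares compare classes at unlike totals. Drawing a larger class down to 1461 counts raises its share of single counts by construction, so the source of the difference was not tested. In untreated MiaPaCa-2, 269 ciRNAs together held 50% of the ciRNA counts, and in treated MiaPaCa-2 124 did.

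The most abundant member was ciRNA105, with 61 counts in untreated MiaPaCa-2, 0 in treated MiaPaCa-2, 95 in untreated PANC-1 and 94 in treated PANC-1. It led 3 of the 4 libraries and was at 0 in the other, where a count of 0, taken as 3, allows up to 0.205% of ciRNA counts from counting error alone. In treated MiaPaCa-2 the first place was held by ciRNA2804, with 43 and 56 counts in untreated and treated MiaPaCa-2 and 0 and 7 in untreated and treated PANC-1. Among identifiers of all classes, the leading ciRNA ranked 43rd in untreated MiaPaCa-2, 11th in treated MiaPaCa-2, 19th in untreated PANC-1 and 33rd in treated PANC-1.

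Other abundant ciRNAs leaned to one line. ciRNA3050 had 7 counts in each MiaPaCa-2 library and 54 and 74 in untreated and treated PANC-1. The opposite lean was seen for ciRNA2263, with 47 and 36 counts in untreated and treated MiaPaCa-2 and 6 and 0 in untreated and treated PANC-1. ciRNA2265 had 30 and 25 counts in untreated and treated MiaPaCa-2 and none in PANC-1. The counts of these 3 circles did not overlap between the lines, raw or scaled. However, the circles were picked by their counts, and the share of all identifiers without overlap was not counted.

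A further group was counted in all 4 libraries but also leaned to one line on scaled counts. ciRNA2196 had the highest minimum, with 33, 36, 18 and 21 counts in untreated and treated MiaPaCa-2 and untreated and treated PANC-1. ciRNA957 followed with 40, 15, 20 and 19. Next came ciRNA306, with 19, 11, 10 and 10 counts, then ciRNA3050, given above, whose minimum was 7, and ciRNA1861, with 19, 13, 6 and 7. These raw counts stand against library totals that differ by line and treatment, so a level is compared below on the scaled counts. Only 3 ciRNAs had at least 10 counts in every library, and they were ciRNA2196, ciRNA957 and ciRNA306.

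**Figure D2:**
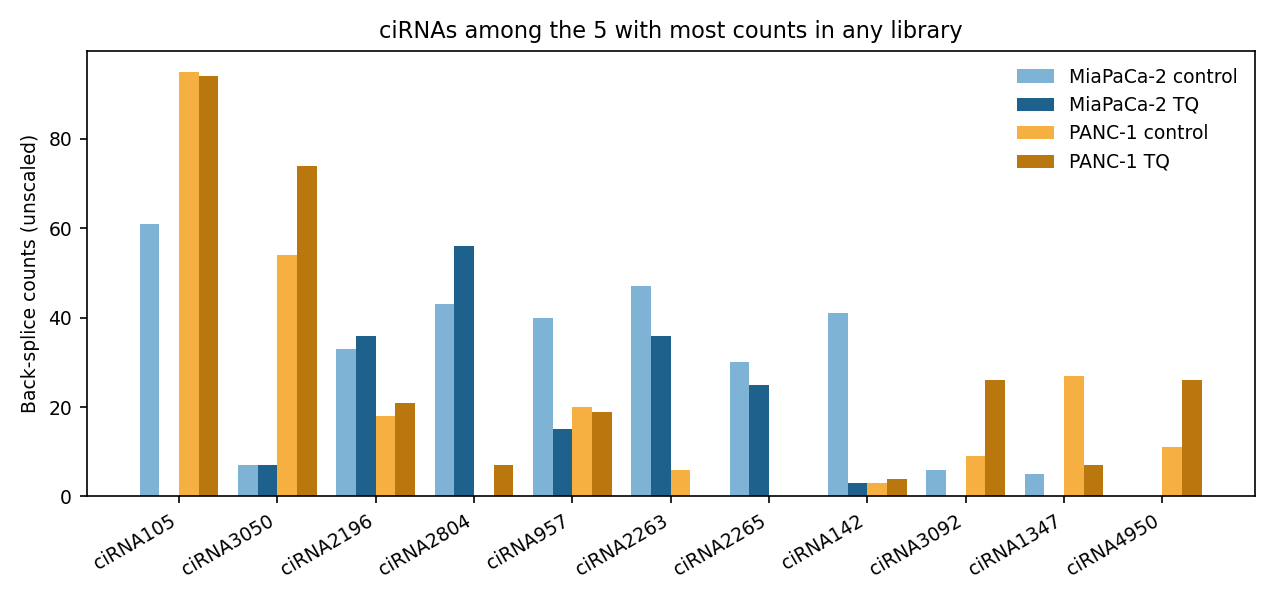
Unscaled junction counts of the 11 ciRNAs that were among the 5 with most counts in at least 1 library, with 1 bar per library. ciRNA105 has 61, 95 and 94 counts in 3 libraries and no bar in treated MiaPaCa-2, while ciRNA2804, ciRNA2263 and ciRNA2265 are mainly in MiaPaCa-2 and ciRNA4950 only in PANC-1.

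Most ciRNAs were seen in a single library. Of the 3708 members, 3270 (88.2%) had counts in 1 library, 295 in 2, 102 in 3 and 41 (1.11%) in all 4. Of all 29586 identifiers, 70.8% were in 1 library and 4.65% in all 4, and of uncatalogued circRNAs 83.3% and 1.37%. The members of a single library still held 58.8% of ciRNA counts in untreated MiaPaCa-2, 50.6% in treated MiaPaCa-2, 55.4% in untreated PANC-1 and 54.2% in treated PANC-1. The 41 members present everywhere held between 11.1% and 14.7%. Control and TQ of the same line shared 156 of 2026 MiaPaCa-2 ciRNAs (7.70%) and 178 of 1970 PANC-1 ciRNAs (9.04%). These shares were 16.8% and 23.5% over all identifiers and 8.75% and 12.3% for uncatalogued circRNAs.

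The lines shared 288 ciRNAs, which was 14.2% of those in MiaPaCa-2, 14.6% of those in PANC-1 and 7.77% of all members. A further 1738 were counted in MiaPaCa-2 alone and 1682 in PANC-1 alone. The shared members held 33.8% of ciRNA counts in untreated MiaPaCa-2, 36.1% in treated MiaPaCa-2, 32.0% in untreated PANC-1 and 30.3% in treated PANC-1. Of catalogued circles, 33.3% were in both lines, of uncatalogued circRNAs 10.4%, and of all identifiers 20.9%.

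Detection in both lines depends on abundance, so the classes were also compared within bins of total count. These and later intervals on numbers of identifiers take identifiers as independent and hold no spread between libraries. With 10 to 19 counts, 55.7% of 70 ciRNAs were in both lines (95% interval 43.3 to 67.6), against 58.3% of uncatalogued circRNAs (53.1 to 63.3) and 78.8% of circBase circles (76.6 to 81.0). With 4 to 9 counts the shares were 33.8% (29.0 to 38.9), 27.6% (25.6 to 29.7) and 52.3% (50.6 to 54.1). At 20 to 49 counts, 79.5% of 39 ciRNAs were shared (63.5 to 90.7), and the interval of circBase circles (89.1 to 93.1) overlapped it. Of the 9 ciRNAs with 50 or more counts, 8 were in both lines, and the exception was ciRNA2265.

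**Figure D3:**
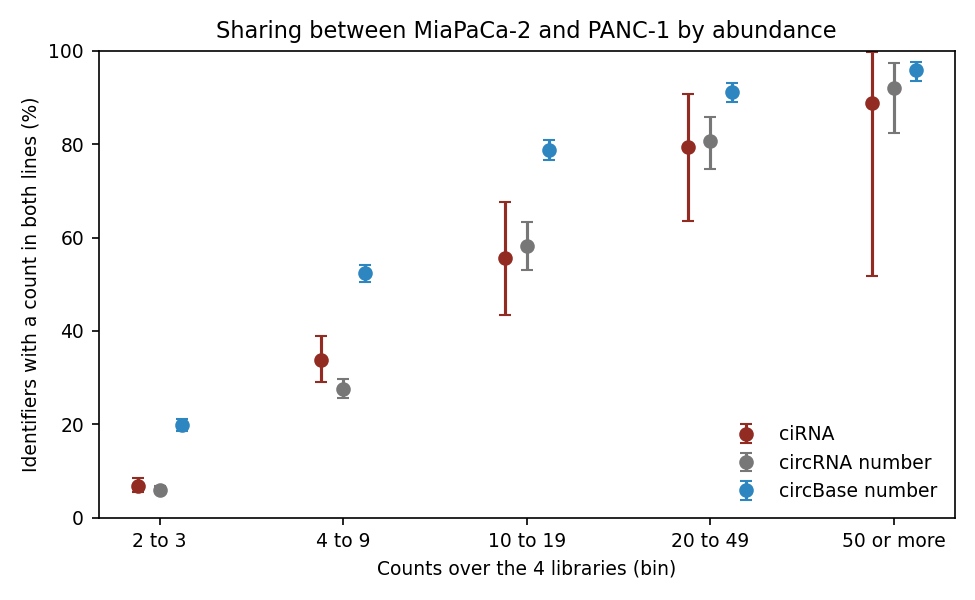
Percent of identifiers with a count in both lines, by their total over the 4 libraries, for 3 identifier classes, with 95% Clopper-Pearson intervals. From 2 to 19 counts, ciRNAs lie well under the circBase circles (55.7% against 78.8% at 10 to 19 counts) and near the uncatalogued circRNAs at 58.3%.

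Some well-counted ciRNAs were missing from the other line. Of 49 ciRNAs with at least 10 counts in MiaPaCa-2, 13 had 0 in PANC-1 (26.5%, 15.0 to 41.1), and of 58 such ciRNAs in PANC-1, 27 had 0 in MiaPaCa-2 (46.6%, 33.3 to 60.1). Among circBase circles the shares were 4.88% (3.55 to 6.51) and 18.5% (16.7 to 20.4), and over all identifiers 8.76% (7.18 to 10.6) and 22.5% (20.8 to 24.3). Uncatalogued circRNAs had 21.6% (16.1 to 28.0) and 35.8% (31.4 to 40.5), with intervals that overlap those of ciRNAs. The MiaPaCa-2 libraries were the shallower ones together, which bears on the second share of each class.

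The ciRNAs with most counts in one line and none in the other were named by rule. On the TMM scale, ciRNA2265 was 30.9-fold lower in PANC-1 (upper 99% limit 0.0600), where the 0 of both PANC-1 libraries together is set to a floor of 3 counts. A fold at the floor is no minimum, since the 99% limit of the ratio allows a smaller difference. The circles were picked for many counts in one line and 0 in the other, so these folds and limits describe the pick and test nothing. The limits pool both libraries of a line and hold no spread between them. ciRNA1204, with 15 counts in each MiaPaCa-2 library and 0 in PANC-1, was 16.9-fold lower at that floor (0.115). In the other direction ciRNA4950, with 11 and 26 counts in untreated and treated PANC-1, was 7.32-fold higher in PANC-1 at the floor (lower 99% limit 3.86). ciRNA6761, with 14 and 19, was 6.53-fold higher at the floor (3.41). No ciRNA numbered above 4306 had a count in untreated MiaPaCa-2 and none above 6167 in either MiaPaCa-2 library, which takes in the 0 of ciRNA6761 in both and that of ciRNA4950 in the untreated one. The part of the numbering in these zeros was not tested, and the 2 values hold only if the zeros are measured.

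edgeR's quasi-likelihood test, with treatment as the other term, found no ciRNA that differed between the lines at a false discovery rate of 0.05. It tested 24 of the 3708 members among 827 identifiers and called 0 of the 24, where 0.121% of all tested identifiers were called. At an unadjusted p under 0.05 there were 8 of the 24, against 146 of the 827. The fold change was below 0 for 20 of the 24, with a median log2 of -1.96 beside 0.23 over all 827. A member had to pass the filter on low counts, and could do so through 1 line alone. ciRNA139 passed with 14 and 6 counts in untreated and treated MiaPaCa-2 and none in PANC-1. ciRNA4950 passed with 11 and 26 in untreated and treated PANC-1 and none in MiaPaCa-2. The filter is relative to library totals and asks for fewer counts in shallow treated MiaPaCa-2, so the lean is not read as a line difference. The lowest p belonged to ciRNA2804, lower in PANC-1 with a log2 fold change of -5.24 (SE 0.81, adjusted p = 0.197 by edgeR), and in the other direction to ciRNA3050, with 2.30 (SE 0.58, adjusted p = 0.218). With 1 residual degree of freedom the count was unstable: DESeq2 called 3 of the same 24 (8.10% of all 827 identifiers) and edgeR with DESeq2 size factors 7 (16.9% of all). Fits with a library left out had 1 term. Leaving out untreated MiaPaCa-2 gave 17 of 33, where 34.3% of all 1260 identifiers were called. Leaving out treated MiaPaCa-2 gave 10 of 39 (15.8% of all), treated PANC-1 4 of 43 (6.76%) and untreated PANC-1 0 of 41 (0.0837%).

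The numbers in the ciRNA names were not independent of the libraries. Every ciRNA numbered above 4306 had 0 counts in untreated MiaPaCa-2, and the highest number with a count was 6167 in treated MiaPaCa-2, 7578 in untreated PANC-1 and 10512 in treated PANC-1. Each library had 1 long run of consecutive listed numbers that were all detected in it: 1169 ciRNAs from 3117 to 4306 in untreated MiaPaCa-2, 408 from 5758 to 6167 in treated MiaPaCa-2, 708 from 6861 to 7578 in untreated PANC-1 and 547 from 9947 to 10512 in treated PANC-1. The runs held 78.0%, 59.7%, 63.7% and 52.8% of the ciRNAs detected in their libraries. None of the ciRNAs of a run had a count in a library that stands earlier in the table. The layout was not particular to ciRNAs. Uncatalogued circRNAs had runs of 2454, 665, 2289 and 2342 in the same order of libraries, also with no count in an earlier library.

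**Figure D4:**
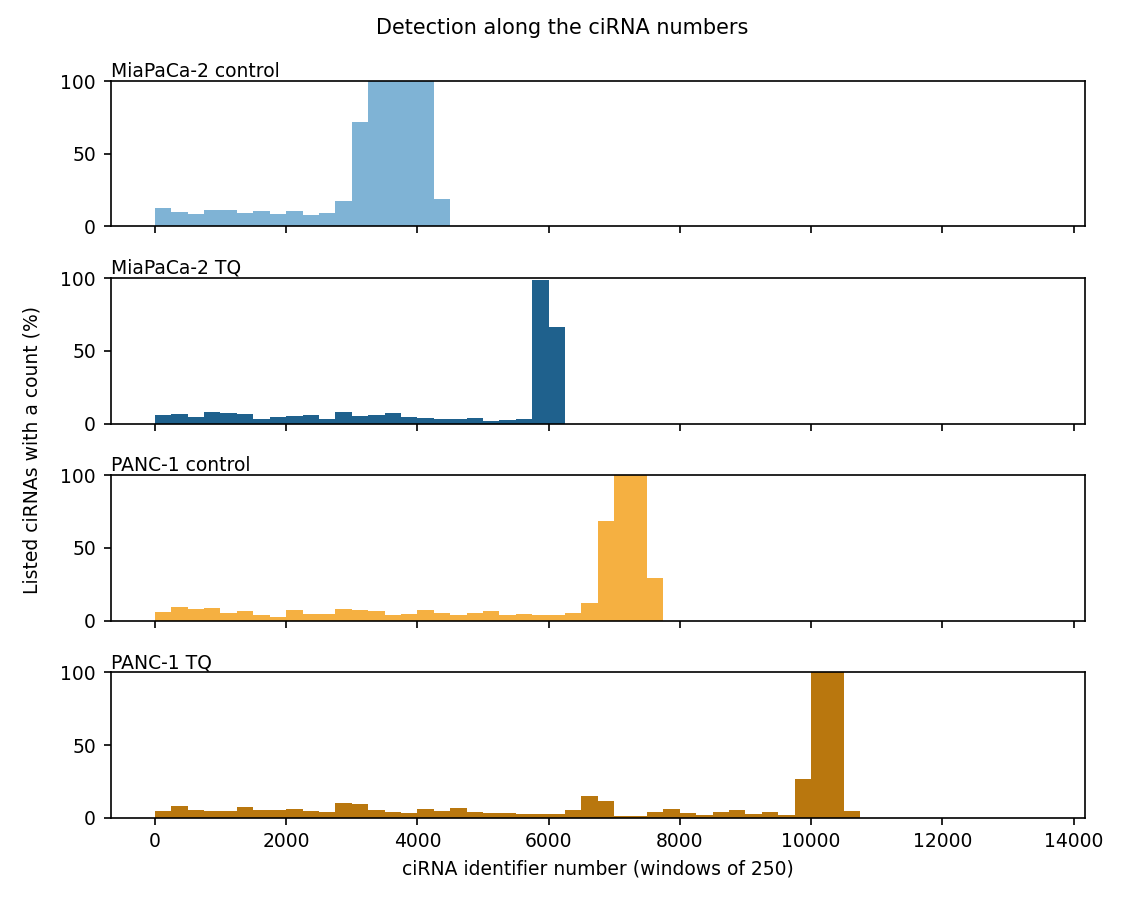
Percent of listed ciRNAs with a count in each library, in windows of 250 identifier numbers. Each library has a block near 100% (3117 to 4306, 5758 to 6167, 6861 to 7578 and 9947 to 10512 from top to bottom), a low level before it and nothing above 10512.

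The ciRNAs inside and outside these runs differed in abundance. The 4 runs held 2832 members (76.4%) but 4829 of 9712 ciRNA counts (49.7%). In untreated MiaPaCa-2 the mean count was 1.60 within its run and 4.53 for the 330 detected ciRNAs outside it. In treated PANC-1 the means were 1.57 and 3.38. Both lines shared 4.34% of the members inside the runs and 18.8% of those outside. The ciRNAs of both PANC-1 runs had 0 counts in MiaPaCa-2, as said above. The low share inside the runs is partly that same fact and no separate result. The 549 members numbered below 3117, before the first run, held 44.4% and 47.4% of ciRNA counts in untreated and treated MiaPaCa-2 and 31.2% and 32.1% in untreated and treated PANC-1, and 158 of them (28.8%) were in both lines. Of the 27 ciRNAs with at least 10 counts in PANC-1 and 0 in MiaPaCa-2, 24 had a number above 4306 and 17 a number above 6167. The part of the numbering in the zeros of these ciRNAs was not tested.

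Several abundant ciRNAs also carried neighbouring numbers, a feature chosen after their values were seen. Among the 89 ciRNAs with at least 10 counts in a line there were 5 pairs with consecutive numbers. In one of them ciRNA305 had 23, 7, 4 and 6 counts in untreated and treated MiaPaCa-2 and untreated and treated PANC-1, and ciRNA306 had 19, 11, 10 and 10. In another, ciRNA2196 stood beside ciRNA2197, which had 7, 6, 2 and 11. ciRNA3103 was at 0 in MiaPaCa-2 with 6 and 13 in untreated and treated PANC-1, whereas ciRNA3104 had 12, 3, 12 and 8. Whether neighbours come from the same intron was not tested, since the table gives no position.

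TQ was then compared with control within each line by a rule of size: a minimum of 10 counts over the 2 libraries, a TMM-normalised ratio outside the range of 0.5 to 2 or on its edge, and a 99% interval (exact conditional binomial) that left out 1. In MiaPaCa-2, 9 of 49 ciRNAs met it (18.4%, 95% interval 8.76 to 32.0), 4 higher and 5 lower, where 10.6% of all 1130 identifiers did, 4.07% higher and 6.55% lower. In PANC-1, 2 of 58 ciRNAs met it (3.45%, 0.420 to 11.9), 1 higher and 1 lower, where 8.87% of all 2289 identifiers did, 5.68% higher and 3.19% lower. Both intervals include the share of all identifiers, but they take identifiers as independent and hold no spread between libraries. The 2 libraries of a line give no p-value, and the MiaPaCa-2 split depended on the scaling, with 8 higher and 4 lower under total counts (11.6% of all identifiers called) and 2 higher and 6 lower under TMM over every identifier (17.1%).

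In MiaPaCa-2 the ciRNAs lower in the TQ library were led by ciRNA105, with 61 untreated and 0 treated counts. It was 8.48-fold lower when the 0 is set to a floor of 3 counts in that library. The ratio has an upper 99% limit of 0.218, which allows a smaller difference than the fold at the floor. ciRNA2902 had 21 and 0 counts and none in PANC-1, 2.92-fold lower at that floor (upper limit 0.688). ciRNA142 was among the 5 with most counts in untreated MiaPaCa-2. It had 41 counts there and 3 in the treated library, at a ratio of 0.176 (99% interval 0.0189 to 0.708), and had 3 and 4 counts in PANC-1. The other two were ciRNA67, with 18 and 0 counts (upper limit 0.821), and ciRNA134, with 17 and 0 (upper limit 0.877), which was no longer called under total counts. They are named here after their values were seen. Of these 5 calls, 4 rested on a 0 in the TQ library, the shallowest one.

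Of the 4 ciRNAs higher in treated MiaPaCa-2, 1 rested on a 0 in the untreated library. ciRNA5868, with 0 untreated and 10 treated counts, was 8.0-fold higher at a floor of 3 counts, and its lower 99% limit was 3.43. It lay inside the run of numbers of treated MiaPaCa-2 and above every number counted in untreated MiaPaCa-2. ciRNA2804, with 43 and 56 counts, had a ratio of 3.12 (1.82 to 5.42), and ciRNA2196, with 33 and 36, had 2.62 (1.37 to 5.04). ciRNA622, named after its values were seen, had 5 and 10 counts and a ratio of 4.80 (1.09 to 27.5). With TMM over every identifier, ciRNA2196 and ciRNA622 no longer met the rule, with ratios of 1.86 and 3.41.

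In PANC-1 the lower call was ciRNA1347, which had 27 untreated and 7 treated counts, at a ratio of 0.188 (0.0493 to 0.551). It had 5 and 0 counts in untreated and treated MiaPaCa-2. The higher call was ciRNA6823, with 0 and 10 counts in untreated and treated PANC-1. It was 2.41-fold higher at the same floor, with a lower limit of 1.04. It was at 0 in MiaPaCa-2, with a number above every one counted there. Both kept their calls under each of 5 scalings. The most abundant PANC-1 ciRNAs did not meet the rule: ciRNA105 had a ratio of 0.716 (0.487 to 1.05) and ciRNA3050 a ratio of 0.992 (0.618 to 1.61).

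Across ciRNAs the ratios lay differently against all identifiers in the 2 lines. In MiaPaCa-2 the median ratio of the 49 ciRNAs was 1.2 beside 0.800 for all 1130 identifiers, and 29 of the 49 lay above 1. In PANC-1 the median of the 58 ciRNAs was 0.935 beside 1.005 for all 2289, and 26 of the 58 lay above 1. The ciRNA median was 1.5 times that of all identifiers in MiaPaCa-2 and 0.930 times in PANC-1 under every scaling tried, since a scale moves both alike. The scale itself moved the MiaPaCa-2 median of all identifiers on the log2 scale from -0.32 to -0.07 with total counts and to -0.82 with TMM over every identifier.

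Summed over all members, ciRNA counts in TQ were 1.04 times control in MiaPaCa-2 (95% interval 0.977 to 1.11) and 0.768 times control in PANC-1 (0.726 to 0.813). Under total counts the MiaPaCa-2 value was 1.24 (1.16 to 1.31) and under TMM over every identifier 0.738 (0.694 to 0.785), so its direction depended on the scale. The PANC-1 value stayed under 1 in each of the 4 scalings, from 0.742 to 0.883.

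There were 18 ciRNAs with at least 10 counts in each line. No ciRNA was called in both lines, in the same or in opposite directions. Neither ciRNA called in PANC-1 had the 10 counts in MiaPaCa-2 that the rule asks for, so no joint call was possible. Joint calls over all identifiers were not counted. Of the 18, 2 had ratios above 1 in both lines, 5 below 1 in both, 7 above 1 in MiaPaCa-2 only and 4 above 1 in PANC-1 only. Among them ciRNA2797 had 14 counts in each MiaPaCa-2 library, a ratio of 2.40 (0.831 to 6.93), and 7 and 3 in untreated and treated PANC-1, a ratio of 0.310 (0.0278 to 2.01). ciRNA957 had ratios of 0.900 (0.373 to 1.97) and 0.688 (0.283 to 1.66) in MiaPaCa-2 and PANC-1. In MiaPaCa-2 the 99% intervals of ciRNA105, ciRNA134 and ciRNA2196 excluded 1, and those of the other circles spanned 1 in both lines. For those circles a difference was not detectable at this depth.

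**Figure D5:**
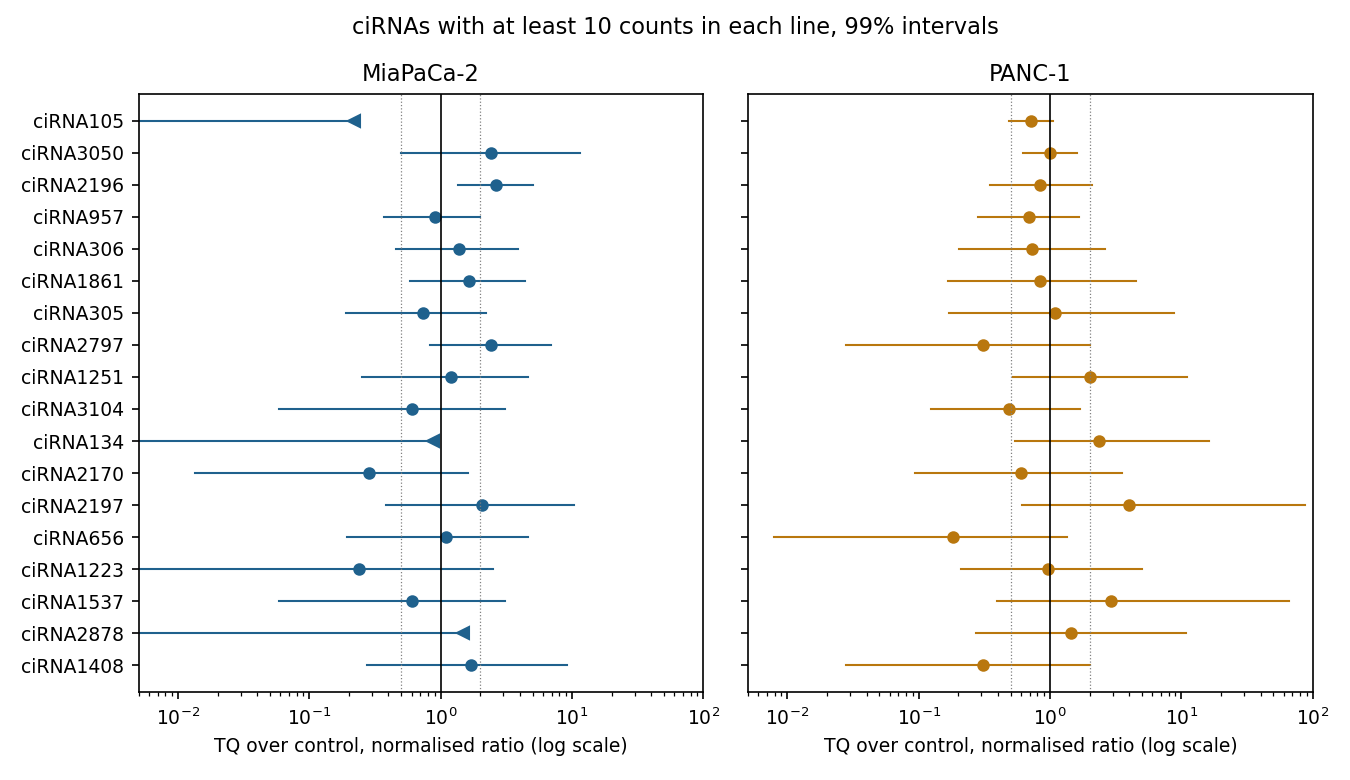
Normalised ratio of TQ to control, on a logarithmic axis, for the 18 ciRNAs with at least 10 counts in each line, in order of total count, with 99% conditional binomial intervals as lines. Triangles mark the upper limit where TQ had 0 counts, and dotted lines mark ratios of 0.5 and 2; ciRNA105 in MiaPaCa-2 has an upper limit of 0.218 and in PANC-1 a ratio of 0.716.

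The edgeR fit also tested treatment, with the lines as its replicates. Of the 24 ciRNAs it called 0, as it did 0% of all 827 identifiers. At an unadjusted p under 0.05 it gave 0 of the 24, against 5 of all 827. DESeq2 called 0 of the 24 with 1 unadjusted, against 8 of all 827 unadjusted. The lowest p in each direction belonged to ciRNA2804, with a log2 fold change of 2.05 (SE 0.76), and ciRNA105, with -1.84 (SE 1.26), both with an adjusted p of 0.998 by edgeR. In PANC-1 the counts of ciRNA105 were nearly equal, at 95 and 94.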

How the data were processed

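Junction reads were counted in 4 libraries, 1 per cell line and treatment, grouped by the sample titles. Per the labels' protocols, ribosomal RNA was depleted and linear RNA digested with ribonuclease R before strand-specific sequencing. The deposited values are whole-number counts per identifier, not normalised, per the file header. Per the submitters' processing notes, the build was GRCh38.p13 and the tools included TopHat2, Bowtie2, edgeR and cutadapt. No source used here names the circRNA caller. Members were all ciRNA identifiers with at least 1 count, and every test was fitted on the whole table. The members, lists and rules were chosen with earlier results of these data known.

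Library scales were TMM factors (edgeR 4.0.16) over the 827 identifiers passing filterByExpr by treatment. In edgeR's quasi-likelihood fit, terms were cell line and treatment, p-values were adjusted by Benjamini-Hochberg, and standard errors were derived from the F statistic. Shares of counts have 95% Clopper-Pearson intervals, which cover counting error only. Shares of identifiers have the same kind of interval, which takes identifiers as independent and holds no spread between libraries. PCR copies could not be removed. Mean ciRNA shares were compared by an exact two-sided permutation over libraries, which ignores the pairing by line and takes the doses as 1 treatment. Detection at equal counts used the exact hypergeometric expectation. Named ciRNAs were the 5 with most counts per library, the 5 with the highest minimum, the 2 per direction and line whose 99% limit lay farthest from 1, up to 2 called alike and up to 2 called oppositely in the lines, the 2 per line with most counts and 0 in the other line, and the lowest p per direction of each fit. Alternatives were 4 other scalings, other minimums, intervals and folds, DESeq2 1.42.0, no filter, fewer terms and each library left out. R 4.3.3, Python 3.11.15 and scipy 1.17.1 were used. Sequences, host genes and coordinates of the ciRNAs were not analysed here.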

Additional observations from a re-analysis of the deposited data

Results flagged for a closer look

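The ciRNA share of junction counts differed in opposite directions between treated and untreated cells, by 1.76 percentage points for MiaPaCa-2 and by -1.17 for PANC-1. The ratio of summed ciRNA counts, treated over untreated, was 1.04 for MiaPaCa-2 and 0.768 for PANC-1. These also lie on opposite sides of 1, although the MiaPaCa-2 interval includes 1. With TMM over every identifier they lie on the same side, at 0.738 for MiaPaCa-2 (95% interval 0.694 to 0.785) and 0.883 for PANC-1. Each line had 1 library per treatment and another dose, so the difference between the lines was not tested. The treated library was the shallower one in MiaPaCa-2 and the deeper one in PANC-1, and the part of depth was not tested.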

How the results depend on the processing

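With identifiers of at least 2 counts over the 4 libraries, the ciRNA share was 6.25% in untreated MiaPaCa-2, 7.81% in treated MiaPaCa-2, 4.05% in untreated PANC-1 and 3.27% in treated PANC-1, and with at least 10 counts 3.32%, 4.47%, 2.22% and 1.87%. The PANC-1 difference, TQ minus control, was then -0.780 and -0.345 percentage points, and the MiaPaCa-2 difference with at least 10 counts was 1.15, so both kept their direction. The share of the 10 most abundant ciRNAs, among ciRNAs of at least 2 counts, was 14.0%, 21.6%, 16.0% and 16.0% in the same order of libraries, and without the most abundant ciRNA 9.55%, 13.3%, 8.62% and 10.0%. Members in both lines were 9.36% at a minimum of 2 counts per line and 6.83% in the control libraries alone. Without each library in turn, an alternative chosen after the data were seen, they ran from 5.45% to 7.33%.

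In MiaPaCa-2, 21 of 160 ciRNAs were called with a minimum of 5 counts and 21 of 2026 with no minimum (16 higher and 5 lower in each), 5 of 17 with a minimum of 20 and 18 of 49 with 95% intervals, where 7.60%, 1.54%, 17.9% and 25.2% of all identifiers were. In PANC-1 these numbers were 9 of 185, 9 of 1970 (1 higher and 8 lower in each), 1 of 14 and 6 of 58, beside 5.65%, 1.28%, 6.5% and 12.9% of all. The calls added under 10 counts were all higher ones in MiaPaCa-2, and in PANC-1, whose untreated library was the shallower, all lower ones. The ratio of summed counts, whose scalings were also added later, was 1.24 by total counts and 0.738 by TMM on every identifier in MiaPaCa-2, and 0.883 by the latter in PANC-1. Between the lines, ciRNA calls numbered 3 with DESeq2, 2 with no filter, 7 with DESeq2 size factors, 9 with 1 model term, and 0 to 17 with a library left out, where 8.10%, 0.0507%, 16.9%, 19.1% and 0.0837% to 34.3% of all identifiers were called. For TQ over control, 0 ciRNAs were called with DESeq2, with no filter, with DESeq2 size factors and with 1 model term. Of all identifiers, 0%, 0%, 0.121% and 0% were called in the same order. The edgeR fit of treatment pairs the libraries by line through its line term, and without that term it also called 0. The labels give no replicate numbers, so there was no other pairing. Depth limits all ratios: most members had 1 or 2 counts.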
